A study of Drosophila melanogaster with 4 samples.

Results

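Torso, a receptor tyrosine kinase that patterns both ends of the Drosophila embryo, and the Ras-MAPK proteins that carry its signal were followed through 10 named genes: tor, drk, Sos, Ras85D, phl (Raf in the annotation), ksr, Dsor1, rl, edl and pnt. The genes were taken by name from this pathway, as the maternal receptor and kinases on one side and the zygotic Ets regulators edl and pnt on the other, out of 14001 genes with a matched transcript. RNA came from whole Drosophila melanogaster embryos of strain w118, with 2 libraries of embryos collected 4–5 h after egg laying and 2 libraries of embryos collected 0–1 h after egg laying. The chorion was taken off with bleach, the embryos were broken up, and debris was spun out. Total RNA, with no poly(A) selection beforehand, went into Nanopore direct RNA sequencing, in which RNA itself is read, neither copied nor amplified. rRNA made up 5.33% and 3.21% of each 4–5 h library and 2.2% and 0.74% of each 0–1 h library. Whether the poly(A) tail affected which molecules were read was not tested. Levels below are therefore those of the RNA that was read, and may differ from levels in total RNA. The labels do not say whether the libraries of a stage came from separate collections, and the p-values therefore reflect the spread of these 4 libraries alone, part or all of which may be technical.

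As background, the mother loads tor mRNA into the whole egg, while the ligand Trunk becomes active only at the poles, so the receptor is switched on at the ends of the embryo. Activated Torso recruits the adaptor Drk and the exchange factor Sos, Ras is loaded with GTP, and Raf, MEK (Dsor1) and ERK (rl) are switched on in turn. ERK then relieves repression by Capicua and Groucho, so that tailless and huckebein are transcribed at the poles. Later in embryogenesis the EGF and FGF receptors use the same kinases, and the Ets factor Pointed, the Ets repressor Anterior open and the SAM-domain protein Edl, which binds both, read out ERK activity in the nucleus.

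Each value rests on few molecules. The sequencing depth was 883138 and 429534 reads at 4–5 h, against 573843 and 557424 reads at 0–1 h. The 10 genes together took 617 and 351 reads at 4–5 h and 512 and 493 at 0–1 h. The stage labels were set against marker lists: 9 maternally loaded egg mRNAs had 184 and 82 reads at 4–5 h and 8134 and 7896 at 0–1 h. The 10 zygotic body plan genes had 262 and 134 reads at 4–5 h and 14 and 19 at 0–1 h. Markers of follicle cells, chorion and yolk had 3 reads in each 4–5 h library and 0 in each 0–1 h library over 14 genes. Sperm and testis genes had 2 and 3 reads at 4–5 h and 49 and 60 at 0–1 h over 12 genes, all of them on bam, which the female germ line also uses, with the other 11 genes at 0. The 6 hemocyte genes had 66 and 46 reads at 4–5 h and 96 and 98 at 0–1 h. Ribosomal protein mRNAs made up 49.6% and 49.2% of each 4–5 h library, against 23.0% and 25.9% of each 0–1 h library. In whole embryos, fewer cells that hold an mRNA and less of it per cell cannot be told apart.

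Levels within a gene are given as reads and as CPM, the reads of a gene per 1e6 reads of a library whose size was scaled by TMM, with the mean ± SD over n = 2 libraries a stage. The log2 change is 4–5 h over 0–1 h with its standard error (SE), and a gene was called when edgeR's quasi-likelihood F test gave a Benjamini-Hochberg adjusted p under 0.05 over all 6042 genes tested. Of those 6042 genes 28.6% were higher at 4–5 h and 31.5% lower, so 60.1% were called in one direction or the other, and the median log2 change was -0.10. With library size as the only scaling these shares were 10.9% and 63.3% and the median log2 change was -1.29. On deposited TPM with limma the median was -1.80, so each change below is relative to the scaling named.

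Of the 10 genes all were tested: drk, Ras85D, edl and pnt were higher at 4–5 h, Dsor1 was lower, and tor, Sos, phl, ksr and rl were not called. These 4 higher genes and 1 lower gene stand beside the 60.1% of all tested genes that were called, and the median log2 change of the 10 was 0.17, or 0.16 with edl at its lower bound. The libraries of the stages did not overlap in CPM for 8 of the 10 genes, all but Sos and ksr, beside 79.8% of tested genes. Of the called genes, edl and pnt passed the filter on low counts only through the 4–5 h libraries. Of the genes not called, tor and Sos passed only through the 0–1 h libraries. The presence of these genes among the tested genes already favours a difference. The part of the ribosomal protein shift in these changes was not tested. With ribosomal protein and rRNA genes left out of the scaling all 10 genes kept their direction and their call. With library size only, Ras85D was at a log2 change of -0.11, and tor, Sos, phl, ksr and rl were called lower.

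**Figure D1:**
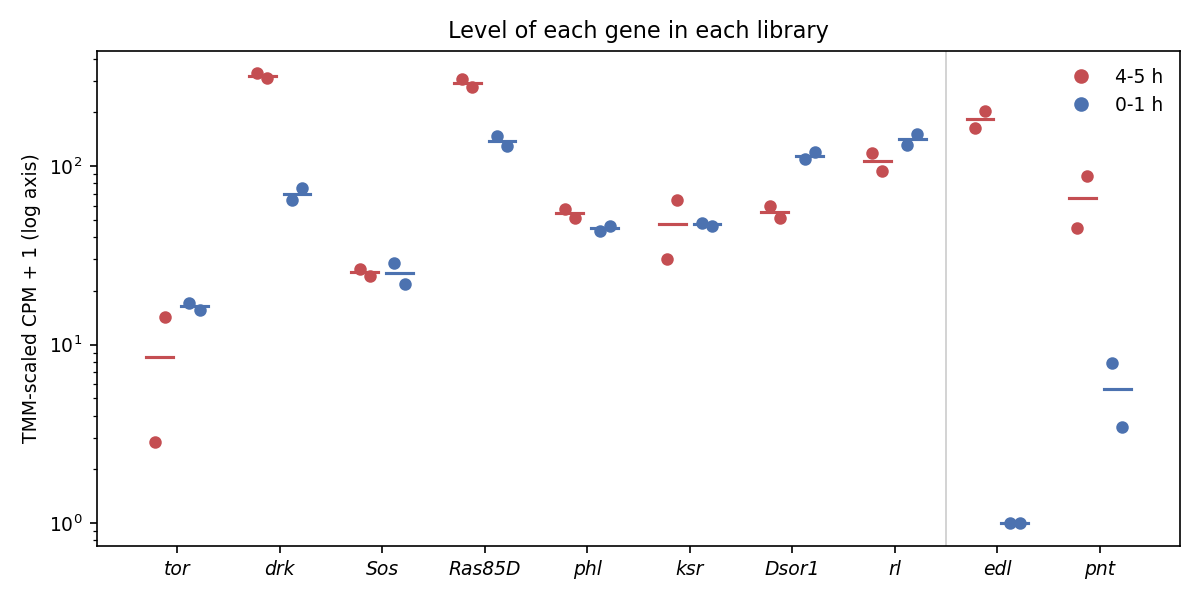
Level of each of the 10 genes in each library, as TMM-scaled CPM + 1 on a log axis, with 4–5 h libraries in red left of 0–1 h libraries in blue. Points are libraries, horizontal bars are the mean of 2, and the grey line sets edl and pnt apart from the receptor, adaptor and kinase genes. drk and Ras85D lay above and Dsor1 below their 0–1 h libraries, and edl had 0 reads in both 0–1 h libraries.

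The receptor gene tor (FBgn0003733, chromosome 2R, 7705183–7709184, minus strand, BDGP6.54) had 1 and 4 reads at 4–5 h and 14 and 12 reads at 0–1 h. It was scarce in all 4 libraries, and both 0–1 h libraries lay above both 4–5 h libraries. tor averaged 7.58 ± 8.13 CPM at 4–5 h and 15.4 ± 1.03 CPM at 0–1 h, and the log2 change of -1.33 ± 0.63 (SE) missed the threshold in edgeR (adjusted p = 0.0613). The ratio of the stages was 0.385 with a 95% counting interval of 0.115 to 1.02, which covers counting error only. Without 4–5 h replicate 2, which held 4 of the 5 late reads, the log2 change was -2.95 (adjusted p = 0.0442 in edgeR), and without 4–5 h replicate 1 it was -0.20 (adjusted p = 0.854). Over the 12 alternative fits that tested tor the adjusted p ran between 1.66e-04 and 0.854.

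The adaptor gene drk (FBgn0004638, chromosome 2R, 13495222–13502841, minus strand) encodes an SH2-SH3 protein of the Grb2 family that links phosphorylated receptors to Sos. It had 180 and 93 reads at 4–5 h and 55 and 61 at 0–1 h. Scaled to the libraries, it averaged 320.1 ± 14.5 CPM at 4–5 h and 68.8 ± 7.92 CPM at 0–1 h, with no overlap and a gap far wider than the spread within a stage. drk was 4.66-fold higher at 4–5 h, a log2 change of 2.22 ± 0.25 (SE, adjusted p = 1.9e-12 in edgeR). The size depended on the scaling. With library size only, where the median of all genes was -1.29, drk was at 1.03. On log2(TPM + 1), where that median was -1.80, drk was at 0.16 and not called (adjusted p = 0.598 in limma). Its partner Sos (FBgn0001965, chromosome 2L, 13813816–13819824, plus strand), the guanine nucleotide exchange factor that loads Ras with GTP, had 14 and 7 reads at 4–5 h and 24 and 17 at 0–1 h. Sos averaged 24.5 ± 1.68 CPM at 4–5 h and 24.2 ± 4.84 CPM at 0–1 h, the libraries overlapped, and the log2 change of 0.03 ± 0.46 (SE) was not called (adjusted p = 0.956 in edgeR). With so few reads the counting interval of the Sos ratio, 1.02, ran from 0.575 to 1.77. drk lies over mars on the opposite strand, and how the counting treated strand is not given in the sources used here, so reads of the pair may be mixed.

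Ras85D (FBgn0003205, chromosome 3R, 9510561–9513067, minus strand) encodes the Ras GTPase that the receptor tyrosine kinases of the fly share. It had 167 and 83 reads at 4–5 h and 127 and 106 at 0–1 h, all on its single annotated transcript. Both 4–5 h libraries lay above both 0–1 h libraries in CPM, with means of 291.5 ± 21.2 CPM at 4–5 h and 137.6 ± 11.8 CPM at 0–1 h. The change was 2.12-fold, a log2 change of 1.09 ± 0.24 (SE, adjusted p = 5.83e-05 in edgeR). Its direction depended on the scaling: with library size only the log2 change was -0.11 (adjusted p = 0.673 in edgeR). On log2(TPM + 1) it was -0.85 (adjusted p = 0.00697 in limma). Both values lay above the median of all genes on those scales. Over its 14 alternative fits the adjusted p ran between 6e-06 and 0.673.

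Of the kinase and scaffold genes phl, ksr, Dsor1 and rl, Dsor1 alone was called. phl (FBgn0003079, chromosome X, 2295466–2343870, plus strand), the Raf kinase that Ras activates, had 31 and 15 reads at 4–5 h and 37 in each library at 0–1 h. Its level averaged 53.4 ± 4.90 CPM at 4–5 h and 43.8 ± 1.85 CPM at 0–1 h. The 4–5 h libraries lay just above the 0–1 h ones, and the log2 change of 0.30 ± 0.35 (SE) was not called (adjusted p = 0.466 in edgeR). ksr (FBgn0015402, chromosome 3R, 5478390–5483906, minus strand), a Raf relative that acts as a scaffold for Raf and MEK, had 16 and 19 reads at 4–5 h and 41 and 37 at 0–1 h. The 4–5 h libraries of ksr stood on either side of the 0–1 h libraries in CPM, at 46.3 ± 24.0 CPM at 4–5 h against 46.1 ± 1.40 CPM at 0–1 h, and its log2 change of -0.10 ± 0.37 (SE) was not called (adjusted p = 0.822 in edgeR).

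Dsor1 (FBgn0010269, chromosome X, 9247342–9250037, plus strand), the MEK that phosphorylates ERK, had 32 and 15 reads at 4–5 h and 94 and 97 at 0–1 h. It fell to 54.4 ± 6.20 CPM at 4–5 h, against 113 ± 7.29 CPM at 0–1 h, with no overlap. The log2 change was -1.03 ± 0.30 (SE, adjusted p = 0.00224 in edgeR), and DESeq2 gave nearly the same size, -1.01, short of the threshold (adjusted p = 0.064, the highest of 14 alternative fits, with 1.45e-07 the lowest). rl (FBgn0003256, chromosome 2R, 1071462–1125927, plus strand), the ERK at the end of the cascade, had 64 and 28 reads at 4–5 h and 114 and 124 at 0–1 h. Both 4–5 h libraries lay below both 0–1 h libraries, at 105 ± 17.1 CPM at 4–5 h and 141 ± 14.3 CPM at 0–1 h, but the log2 change of -0.40 ± 0.26 (SE) was not called (adjusted p = 0.184 in edgeR). With library size only both were called lower, with log2 changes of -2.23 for Dsor1 and -1.60 for rl. Under that scaling phl, ksr and Sos were called lower too, at -0.89, -1.29 and -1.16, while the median of all genes was -1.29. The span of phl also holds CG2854, CG14050, Ilp6 and lncRNAs, and ksr overlaps Hcs on the opposite strand, whose reads the counting may not separate. rl spans transposon insertions, which overlap no annotated exon of its transcripts.

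edl (FBgn0023214, chromosome 2R, 18667527–18673536, minus strand), whose SAM-domain protein regulates Ets factors, had 88 and 61 reads at 4–5 h and 0 in both 0–1 h libraries. It was seen at 4–5 h and in no read at 0–1 h, where a count of 0 allows up to 3.45 and 3.66 CPM, the value of 3 reads in each library. edl averaged 182 ± 29.5 CPM at 4–5 h, at least 51.3-fold higher than that floor (adjusted p = 2.86e-23 in edgeR). pnt (FBgn0003118, chromosome 3R, 23290231–23346167, minus strand), an Ets activator that ERK signalling switches on, had 24 and 26 reads at 4–5 h and 6 and 2 at 0–1 h. Its mean was 65.3 ± 30.1 CPM at 4–5 h and 4.67 ± 3.15 CPM at 0–1 h. The stages did not overlap, although the libraries within each stage differed widely. The change was 12.5-fold with a counting interval of 5.88 to 30.5, a log2 change of 3.64 ± 0.52 (SE, adjusted p = 4.35e-09 in edgeR). It was 4.53 without 0–1 h replicate 1, which held 6 of the 8 early reads. Both genes were called higher under every scaling tried. lncRNA:CR46090 lies within pnt on the same strand.

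**Figure D2:**
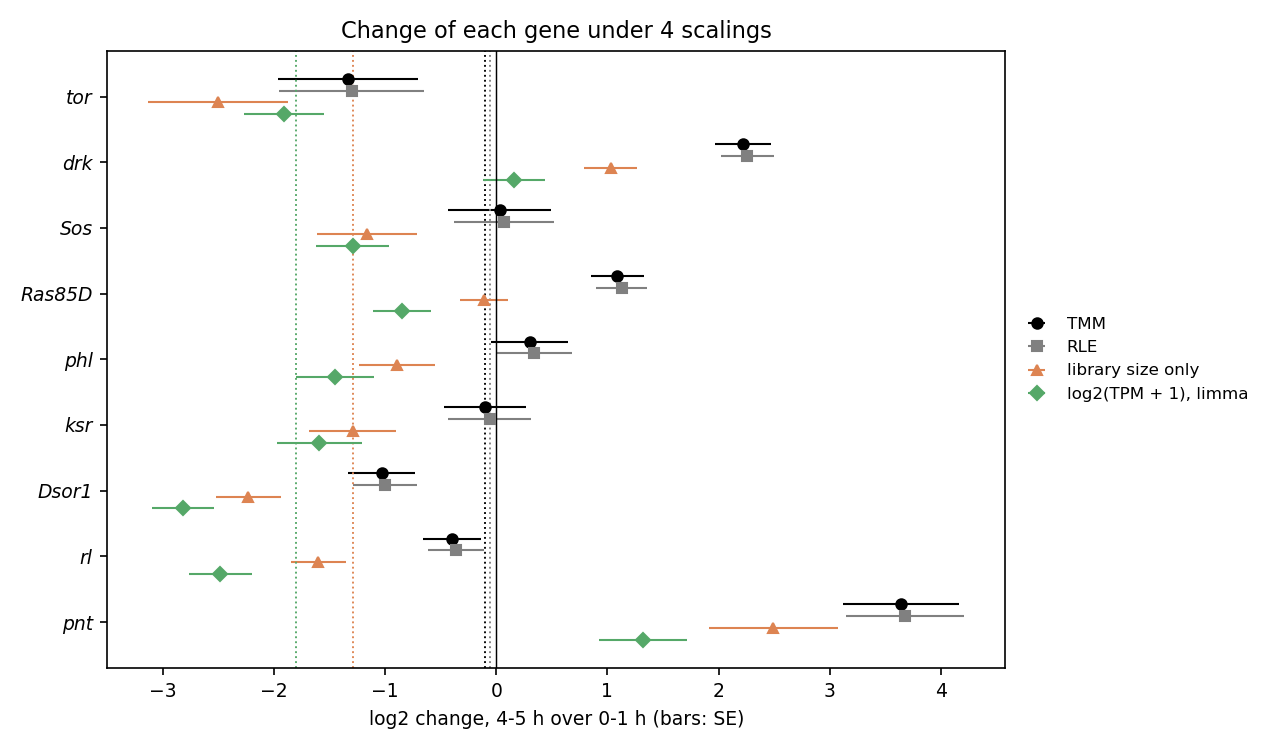
Log2 change, 4–5 h over 0–1 h, of 9 of the 10 genes under 4 scalings, with bars of 1 SE and dotted lines at the median of all tested genes under each scaling. edl is left out because its 0–1 h libraries held 0 reads. pnt lay above 0 under all 4 scalings and Dsor1 below 0, while Ras85D was at 1.09 with TMM and at -0.11 with library size only.

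Within the pathway the reads divided differently at the stages. edl and pnt together took 18.2% (95% Wilson interval 15.3% to 21.4%) and 24.8% (20.6% to 29.6%) of the reads on the 10 genes at 4–5 h, and 1.17% (0.54% to 2.53%) and 0.41% (0.11% to 1.47%) at 0–1 h. drk took 29.2% and 26.5% at 4–5 h and 10.7% and 12.4% at 0–1 h. In the other direction, Dsor1 took 5.19% and 4.27% at 4–5 h and 18.4% and 19.7% at 0–1 h, and rl took 10.4% and 7.98% at 4–5 h and 22.3% and 25.2% at 0–1 h. Ras85D held a like share at the stages, 27.1% and 23.7% at 4–5 h and 24.8% and 21.5% at 0–1 h. These shares need no scaling between libraries, are not corrected for length, and were not tested. All 10 genes together made up 0.0699% and 0.0817% of the library at 4–5 h and 0.0892% and 0.0884% at 0–1 h.

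**Figure D3:**
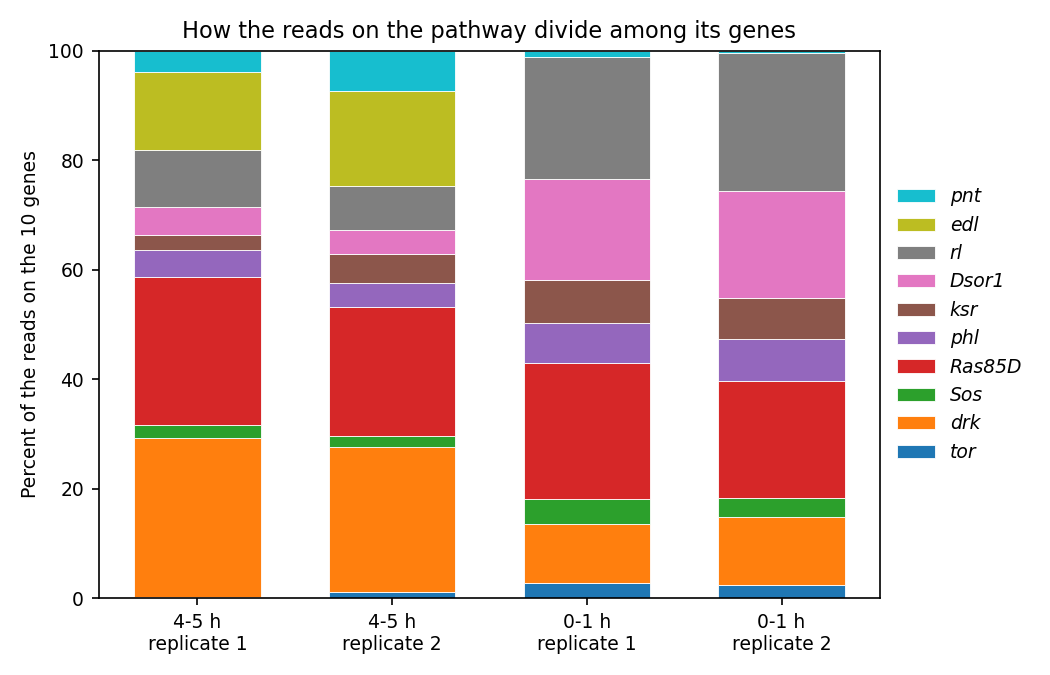
Percent of the reads on the 10 genes that fell on each gene, one bar per library, with the 4–5 h libraries left of the 0–1 h libraries. The blocks of edl and pnt at the top made up 18.2% and 24.8% of the bar at 4–5 h and 1.17% and 0.41% at 0–1 h, while Dsor1 and rl were narrower at 4–5 h.

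Levels of different genes were set beside each other by the deposited TPM (a length-corrected share of each library, by the authors). TPM places long transcripts lower than their reads do, so uncorrected reads can give another order. In reads, drk (180 and 93) stood above Ras85D (167 and 83) at 4–5 h. At 4–5 h the order of mean TPM was Ras85D (40.4 ± 0.172), edl (36.2 ± 8.29), drk (30.4 ± 0.818), rl (13.8 ± 2.74), Dsor1 (9.25 ± 0.963), pnt (4.46 ± 2.50), phl (4.18 ± 0.032), ksr (2.13 ± 1.23), Sos (1.08 in both libraries) and tor (0.651 ± 0.717). In that order the libraries of edl overlapped those of both Ras85D and drk, those of pnt overlapped those of phl and ksr, and those of tor overlapped the Sos level. At 0–1 h the order of mean TPM was rl (81.1 ± 3.01), Ras85D (74.3 ± 12.6), Dsor1 (71.6 ± 7.49), drk (27.1 ± 2.06), phl (13.1 ± 0.990), ksr (8.06 ± 0.921), tor (4.94 ± 0.743), Sos (4.16 ± 1.17), pnt (1.15 ± 0.851) and edl, which was listed at 0. The libraries of Ras85D overlapped those of rl and of Dsor1, while those of rl and Dsor1 did not overlap each other. The libraries of tor and Sos overlapped, and the other neighbours did not. At 0–1 h phl and ksr thus stood below Ras85D, Dsor1 and rl in both libraries.

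Ratios within a library show how the balance of partners differed without any scaling between libraries. The TPM ratio of drk to Sos was 27.6 and 28.7 at 4–5 h and 5.73 and 7.72 at 0–1 h. For Ras85D to Dsor1 it was 4.73 and 4.06 at 4–5 h and 1.08 and 0.987 at 0–1 h, and for Ras85D to phl 9.66 and 9.71 at 4–5 h and 6.02 and 5.27 at 0–1 h. Those ratios did not overlap between the stages, whereas Dsor1 to rl, MEK to its substrate, was 0.545 and 0.838 at 4–5 h and 0.924 and 0.839 at 0–1 h, with the nearest libraries almost equal. The size of these ratios depends on the length correction of TPM. They are descriptions and were not tested.

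The transcript forms of the 10 genes could be compared only in part, since Salmon divides reads among forms that share most of their sequence. Dsor1 shows the limit: its reads went to Dsor1-RA in one 4–5 h library and to Dsor1-RB in the other, and to both forms in 0–1 h replicate 1 but to Dsor1-RA alone in 0–1 h replicate 2. For drk, Dsor1 and rl the use of forms could be tested (diffSpliceDGE in edgeR), and none was called (adjusted p = 0.998, 0.998 and 0.249), beside 13.1% of 823 genes. Every ksr read was assigned to ksr-RC, the longest annotated form, of 5517 nt, and none to the 3 forms with upstream 3′ ends. For pnt, reads at 0–1 h, 6 and 2, all went to pnt-RB, which encodes 718 residues, while at 4–5 h pnt-RE, which encodes 625 residues, took 7.69 and 26.0 of 24 and 26 reads. At the filter used pnt did not enter the isoform test. The 3 alternative fits that tested it did not call it (adjusted p = 0.433 to 0.581 in edgeR).

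Among rl forms, rl-RA, which has the most upstream 3′ end, was singled out after its values were seen. rl-RA ends in an intron of rl-RD. The last exon of rl-RA (chromosome 2R, 1080331–1081150) runs 709 nt into that intron of 25405 nt. rl-RA encodes 190 residues where rl-RD encodes 376. It took 16 and 10 reads at 4–5 h and 2 and 1 at 0–1 h. That is 25% (95% Wilson interval 16% to 36.8%) and 35.7% (20.7% to 54.2%) of rl reads at 4–5 h and 1.75% (0.48% to 6.17%) and 0.81% (0.14% to 4.43%) at 0–1 h. Both 4–5 h shares lay above both 0–1 h shares, and their intervals did not meet. Those intervals cover counting error only, and at other ends the intervals of libraries of the same stage did not meet either. At the next end, for example, the 4–5 h shares were 42.2% (30.9% to 54.4%) and 0% (0% to 12.1%). Intervals that do not meet are therefore no measure of a stage difference here. Scaled to the libraries, rl-RA was 17.3 times as high at 4–5 h (counting interval 5.31 to 89.5), and the rest of rl 0.57 times as high (0.428 to 0.751), with 49 and 18 reads at 4–5 h and 112 and 123 at 0–1 h. The test over all transcripts did not call rl-RA, with a log2 usage change of 2.94 (adjusted p = 0.313 in edgeR). With forms that end within 50 nt of each other summed, rl was not called either (adjusted p = 0.138 in edgeR, beside 35.0% of 457 genes called). Over all alternatives the adjusted p of rl ran between 0.138 and 0.663.

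**Figure D4:**
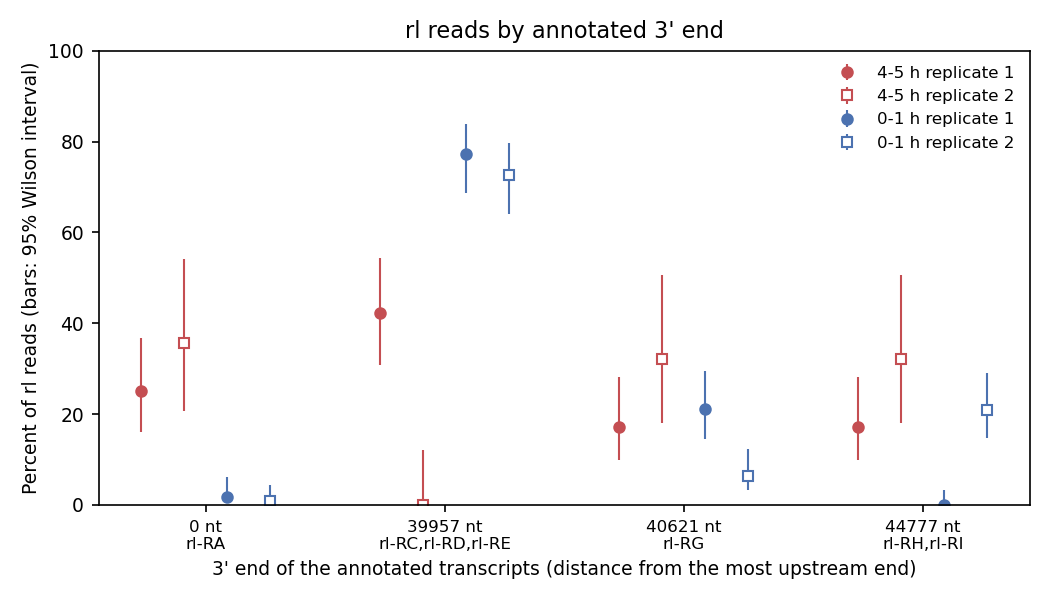
Percent of rl reads assigned to each annotated 3′ end, in nt from the most upstream end, with 95% Wilson intervals over reads. Red points are 4–5 h and blue points 0–1 h libraries, filled for replicate 1 and open for replicate 2. At the most upstream end, that of rl-RA, the 4–5 h libraries were at 25% and 35.7% and the 0–1 h libraries at 1.75% and 0.81%, while at the next end the 4–5 h libraries were at 42.2% and 0%.

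The rest of the pathway was described with 11 lists of genes, of which 74 genes passed the filter, 23 were called higher at 4–5 h, 20 lower and 31 neither, while 41 were not tested, 11 of them without a read. Lists of genes with few reads lose members that are scarce at both stages, so the counts are over tested genes only. The 23 higher and 20 lower genes stand beside 28.6% higher and 31.5% lower of all tested genes, near those shares. Socs36E, stumps, sty, hkb and mirr passed the filter only through the 4–5 h libraries. Another 18 genes passed only through the 0–1 h libraries, among them every tested gene of ligand activation, spri, Ric, Ets97D, bcd, Pvf1 and Mekk1. As with edl, pnt, tor and Sos, entry to the test by that route already favours a difference.

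Upstream of the receptor are 7 genes whose products make, release and process the ligand. Of the 5 that were tested, 4 were called lower at 4–5 h and none higher, beside 31.5% of all tested genes lower. All 5 passed the filter only through the 0–1 h libraries, which already favours a lower level at 4–5 h. Their median log2 change was -5.03, or -3.60 with genes at their bound. It was -3.75 without 4–5 h replicate 1 and -7.17 without 4–5 h replicate 2, in fits that each tested 6 of these genes. trk, the ligand, was without a read at 4–5 h, against 9 and 10 reads at 0–1 h. That is at least 1.45-fold lower against the floor, and trk was not tested. The eggshell and membrane genes needed for its activation had almost no reads at 4–5 h. fs(1)N was without a read at 4–5 h, against 97 and 63 reads at 0–1 h, which is at least 12.1-fold lower. Likewise fs(1)ph (fs(1)M3 in the annotation) had 0 and 2 reads at 4–5 h and 73 and 70 at 0–1 h. closca (clos) had 0 and 1 at 4–5 h and 62 and 25 at 0–1 h. The ratio of 0–1 h over 4–5 h was 35.7 for fs(1)ph (counting interval 9.72 to 298) and 43.5 for clos (7.60 to 1740). The fitted log2 change of fs(1)ph was -5.03, but -3.63 without 4–5 h replicate 1 and -8.98 without 4–5 h replicate 2. For clos it was -5.21, but -3.87 and -8.26 without those libraries and -4.46 without 0–1 h replicate 1. Fur2, a furin protease, had 8 and 5 reads at 4–5 h and 84 and 84 at 0–1 h, a log2 change of -2.67 ± 0.38 (SE, adjusted p = 4.16e-09 in edgeR). Fur1, another furin protease, was not called: it had 7 and 1 reads at 4–5 h and 25 and 11 at 0–1 h (log2 change -1.16, adjusted p = 0.0733 in edgeR). It is named after its values were seen. Torso-like (tsl), a follicle cell product, had 1 and 0 reads at 4–5 h and none at 0–1 h.

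**Figure D5:**
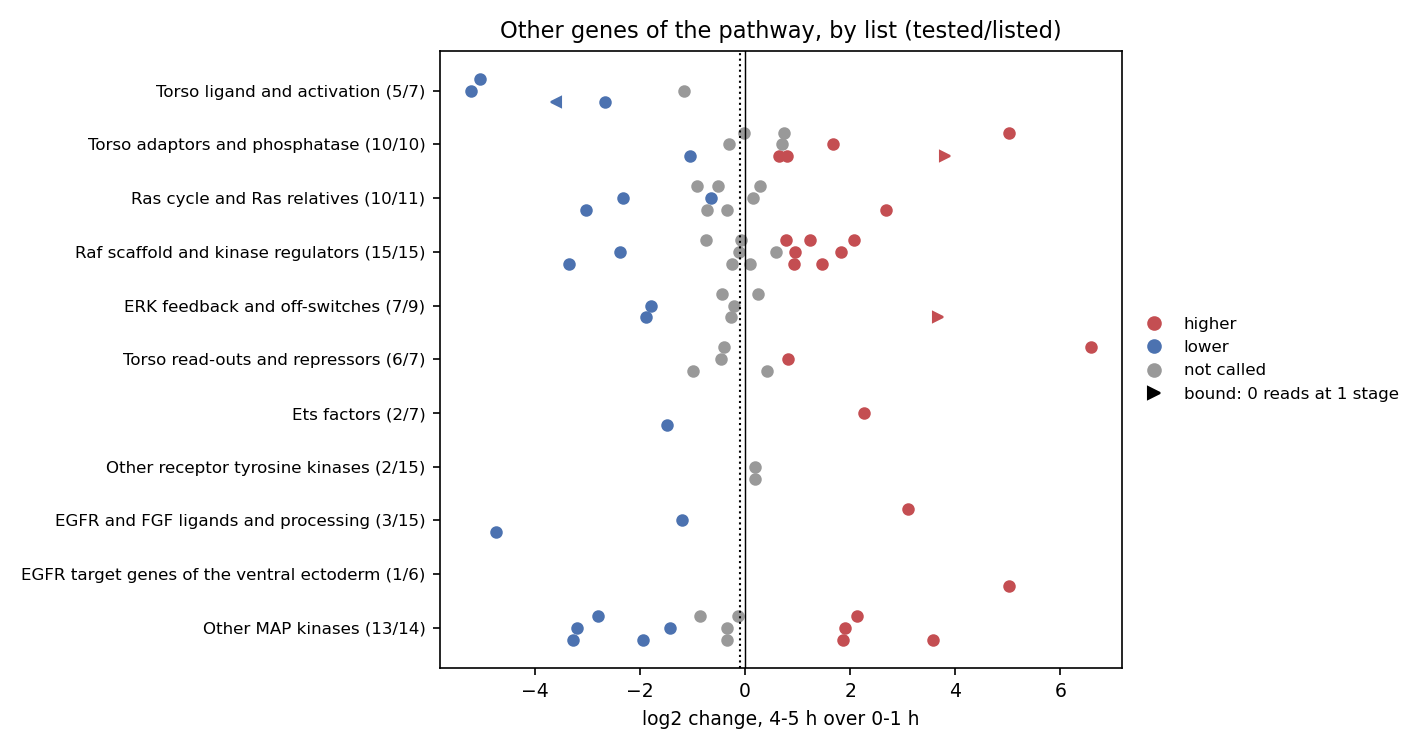
Fitted log2 change, 4–5 h over 0–1 h, of each tested gene of the 11 lists, with the number tested of the number listed, coloured by call. Triangles are bounds for genes with 0 reads in both libraries of a stage, genes with 1 to 3 reads at a stage are at their fitted value, and the dotted line is the median of all genes. As plotted, the ligand and activation genes lay between -5.21 and -1.16, with fs(1)N at its bound of -3.6 and not at its fitted -8.9. Most other lists held genes on both sides.

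Around the receptor, 5 of 10 adaptor and phosphatase genes were called higher and 1 lower, beside 28.6% and 31.5% of all tested genes, with a median log2 change of 0.72 (-0.47 with library size only). The count of 5 was 3 in DESeq2, with no filter and with the replicate block. With the stricter filter, which tested only 6 of the genes, the count was 3 as well. It was also 3 without 4–5 h replicate 1, 0–1 h replicate 1 or 0–1 h replicate 2, and 2 with library size only and in limma. The FGF receptor adaptor stumps had 21 and 18 reads at 4–5 h and 0 at 0–1 h, at least 13.9-fold higher. Socs36E, a suppressor of cytokine signalling, had 24 and 28 reads at 4–5 h and 1 and 2 at 0–1 h, a ratio of 34.7 (counting interval 11.2 to 174). The Src kinase gene Src64B had a log2 change of 1.68 ± 0.32 (SE, adjusted p = 3.46e-06 in edgeR). With library size only Src64B was at 0.50 and not called (adjusted p = 0.179 in edgeR). The gene that fell was csw, the SHP2-type phosphatase that acts with Torso, at -1.04 ± 0.40 (SE, adjusted p = 0.0222 in edgeR). That call was lost in DESeq2 (-1.06) and without 4–5 h replicate 2 (-0.68) or 0–1 h replicate 1 (-0.79). The csw change was -1.90 without 4–5 h replicate 1.

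Among Ras relatives and regulators, 1 of 10 tested genes was higher and 3 lower, beside 28.6% and 31.5% of all tested genes. Their median log2 change was -0.58. Rap1, a close relative of Ras85D, had 259 and 165 reads at 4–5 h and 59 and 75 at 0–1 h, a log2 change of 2.68 ± 0.25 (SE, adjusted p = 1.47e-16 in edgeR), so that it and Ras85D were both higher. Ric, another Ras relative, was at -2.32 ± 0.40 (SE, adjusted p = 4.17e-07 in edgeR). spri, a Ras-binding protein gene, was at -3.03 ± 0.55 (SE, adjusted p = 1.57e-06 in edgeR) and at -3.82 without 4–5 h replicate 1.

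Of 15 genes for Raf chaperones, scaffolds and phosphatases, 7 were higher and 2 lower, beside 28.6% and 31.5% of all tested genes. Their median log2 change was 0.59 (-0.60 with library size only). Hsp83, the Hsp90 chaperone that Raf needs, had 100 and 54 reads at 4–5 h and 1683 and 1466 at 0–1 h, a log2 change of -3.35 ± 0.24 (SE, adjusted p = 1.91e-22 in edgeR). The 14-3-3 protein gene 14-3-3epsilon had 1546 and 769 reads at 4–5 h and 669 and 615 at 0–1 h, a log2 change of 1.83 ± 0.21 (SE, adjusted p = 1.85e-12 in edgeR), but -0.74 on log2(TPM + 1) in limma. Pp1-87B, a catalytic subunit of protein phosphatase 1, was at 2.08 ± 0.22 (SE, adjusted p = 1.13e-13 in edgeR). On log2(TPM + 1) Pp1-87B was at 0.13 and not called (adjusted p = 0.627 in limma).

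Of the genes that turn ERK off or carry it, 1 of 7 tested was higher and 2 lower, beside 28.6% and 31.5% of all tested genes. Their median log2 change was -0.27. The feedback inhibitor gene sprouty (sty) had 22 and 15 reads at 4–5 h and 0 in both 0–1 h libraries, at least 12.7-fold higher. msk, whose importin carries ERK into the nucleus, was at -1.78 ± 0.28 (SE, adjusted p = 5.68e-08 in edgeR). The ERK phosphatase gene Mkp3 was at -1.88 ± 0.40 (SE, adjusted p = 4.15e-05 in edgeR). That call was lost without 4–5 h replicate 1 (-1.34).

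The targets of Torso signalling were few in reads. huckebein (hkb) had 33 and 29 reads at 4–5 h and 1 and 0 at 0–1 h, a ratio of 124 (counting interval 21.5 to 4980), and was called higher (adjusted p = 3.51e-14 in edgeR). Its fitted log2 change was 6.58, but 8.40 without 0–1 h replicate 1, which held the 1 early read, and 5.80 without 0–1 h replicate 2. tailless (tll) had 4 and 5 reads at 4–5 h and 1 and 2 at 0–1 h, a ratio of 6.0 (1.5 to 34.5), and was not tested. The repressors that ERK opposes were not called. capicua (cic) had 20 and 16 reads at 4–5 h and 57 and 44 at 0–1 h, a log2 change of -0.46 ± 0.35 (SE, adjusted p = 0.251 in edgeR). Likewise groucho (gro) had 59 and 44 reads at 4–5 h and 80 and 79 at 0–1 h, a log2 change of 0.41 ± 0.27 (SE, adjusted p = 0.19 in edgeR). With library size only both repressors were called lower, cic at -1.66 and gro at -0.77. On log2(TPM + 1) they were called lower too, at -1.71 and -1.44. wap, whose protein lowers Capicua through the kinase Minibrain, was at 0.81 ± 0.29 (SE, adjusted p = 0.012 in edgeR). DESeq2 (0.86) did not make that call, nor did the fits without 4–5 h replicate 1 (0.85) or 0–1 h replicate 2 (0.59). bcd, the maternal anterior determinant, was at -0.99 ± 0.53 (SE) and not called (adjusted p = 0.1 in edgeR). With library size only (-2.19) and on log2(TPM + 1) (-2.42) bcd was called lower. Of 6 tested genes in this list 2 were higher and none lower at that threshold, beside 28.6% and 31.5% of all tested genes. Their median log2 change was 0.01 (-1.18 with library size only).

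Among Ets factors, 2 of 7 genes were tested. The repressor anterior open (aop, also known as yan), which competes with Pointed and is bound by Edl, had 77 and 61 reads at 4–5 h and 29 and 30 at 0–1 h, a log2 change of 2.27 ± 0.30 (SE, adjusted p = 2.93e-10 in edgeR). Its TPM overlapped between the stages, at 7.48 and 12.5 at 4–5 h and 7.5 and 7.01 at 0–1 h. The TPM ratio of edl to aop was 4.05 and 3.37 at 4–5 h, with edl listed at 0 at 0–1 h, and that of pnt to aop was 0.360 and 0.499 at 4–5 h and 0.234 and 0.0786 at 0–1 h. Ets97D, a broadly expressed GABP-type factor, had 13 and 5 reads at 4–5 h and 43 and 57 at 0–1 h, a log2 change of -1.48 ± 0.40 (SE, adjusted p = 0.00108 in edgeR), which DESeq2 did not call at the same size of -1.48. The other 5 Ets genes had 1 read in all.

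Other receptor tyrosine kinases were scarce at both stages. The 15 genes together had 69 and 46 reads at 4–5 h and 39 and 53 at 0–1 h. Of these genes, 10 had 0 reads at 0–1 h, of which 7 had reads at 4–5 h. Egfr, the EGF receptor, had 12 and 10 reads at 4–5 h and 0 and 1 at 0–1 h, a ratio of 44.0 (counting interval 7.11 to 1820), and was not tested. At the filter used only Eph and dnt were tested, with log2 changes of 0.20 ± 0.45 and 0.19 ± 0.46 (SE), and neither was called (adjusted p = 0.713 and 0.738 in edgeR). Other fits tested more of these genes. With no filter 12 were tested and 4 called higher, beside 2113 of all 8562 genes tested. Leaving out either 0–1 h library, 4 were tested. Their median log2 change was 2.14 without 0–1 h replicate 1 and 3.59 without 0–1 h replicate 2. With ribosomal genes left out of the scaling 3 were tested and 1 called higher, beside 1764 of all 6076 genes tested. With library size only and in limma, Eph and dnt were both called lower.

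Of the 15 ligand and ligand-processing genes of the EGF, FGF and PVR receptors, 3 were tested. Of these 1 was called higher and 2 lower, beside 28.6% and 31.5% of all tested genes, with a median log2 change of -1.19. spi, the main EGF ligand of the embryo, had 106 and 55 reads at 4–5 h and 17 and 20 at 0–1 h, a log2 change of 3.10 ± 0.31 (SE, adjusted p = 9.99e-15 in edgeR). Star (S), which carries Spitz out of the endoplasmic reticulum, was at -1.19 ± 0.35 (SE, adjusted p = 0.00217 in edgeR). The call was lost in DESeq2 (-1.14), without 4–5 h replicate 1 (-1.05) and without 0–1 h replicate 1 (-0.90). Pvf1, a ligand of the PVR receptor, had 0 and 1 reads at 4–5 h and 37 and 25 at 0–1 h. Its ratio of 0–1 h over 4–5 h was 31.0 (counting interval 5.36 to 1240). The fitted log2 change of Pvf1 was -4.73, but -3.38 without 4–5 h replicate 1 and -7.78 without 4–5 h replicate 2. A list of 6 genes was named here for EGFR targets of the ventral ectoderm, but whether each depends on EGFR was not tested. Together they had 64 and 52 reads at 4–5 h and 5 and 2 at 0–1 h. Of these genes mirr, which passed the filter only through the 4–5 h libraries, was tested and called higher. mirr had 18 and 19 reads at 4–5 h and 1 in each library at 0–1 h. ind, a neuroectoderm homeobox gene, had 15 and 11 reads at 4–5 h and 0 at 0–1 h, at least 9.03-fold higher.

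Of 13 tested genes of the other MAPK branches, 4 were higher and 5 lower, beside 28.6% and 31.5% of all tested genes. The 5 lower genes, p38a, p38b, Mekk1, slpr and Ask1, passed the filter only through the 0–1 h libraries, which already favours a lower level. The median log2 change of the tested genes was -0.34. bsk, the JNK, had 105 and 28 reads at 4–5 h and 13 and 8 at 0–1 h, a log2 change of 3.57 ± 0.36 (SE, adjusted p = 2.22e-13 in edgeR), and 2.89 without 4–5 h replicate 1. nmo, a Nemo-like kinase, was at 2.14 ± 0.26 (SE, adjusted p = 1.34e-11 in edgeR). On log2(TPM + 1) nmo was at 0.03 and not called (adjusted p = 0.94 in limma). Mekk1, a MAP kinase kinase kinase, had 5 and 1 reads at 4–5 h and 66 and 52 at 0–1 h, a log2 change of -3.27 ± 0.50 (SE, adjusted p = 2.35e-08 in edgeR), and -4.31 without 4–5 h replicate 1.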

How the data were processed

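RNA was measured by Nanopore direct RNA sequencing in 4 libraries of whole embryos, 2 at 4–5 h and 2 at 0–1 h. Per the submitters' processing notes the authors used minimap2, Salmon and BDGP6 (versions and settings: not given in the sources used here). Read numbers deposited by the authors are expected counts per transcript without normalisation, and here they were summed per gene and rounded. The authors' deposited TPM rest on an effective length, which for 99.2% of transcripts was the full length less 250 nt. Of 30652 transcripts, 30280 matched the Ensembl release 115 annotation of BDGP6.54, which supplied names and coordinates.

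The gene test used edgeR 4.0.16 under R 4.3.3 (low counts removed by filterByExpr with 10 as minimum count, TMM, robust quasi-likelihood F test, stage as the only term), checked on simulated counts, with Benjamini-Hochberg adjustment over 6042 genes. Isoform usage was tested with diffSpliceDGE. Counting ratios are exact conditional binomial and shares are Wilson intervals, at 95%. A fold against a stage at 0 uses a floor of 3 counts per library, and intervals and floors cover counting error only. Genes named are the 10 genes, the 3 tested genes with the smallest p in each list, any list gene at 0 at one stage with at least 20 reads at the other, and tll, hkb, cic, gro, trk, tsl, fs(1)N, fs(1)ph, clos and Egfr. csw, the one lower gene of its list, was added after its value was seen. Members and lists were chosen with earlier results of these data known. Alternatives were RLE, library size only, TMM without ribosomal protein and rRNA genes, DESeq2 1.42.0, limma 3.58.1 on log2(TPM + 1), no filter, a minimum count of 30, thinning to the smallest library, a replicate block and leaving out each library. A search of promoter motifs was planned and not run, as no promoter sequences were used here.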

Additional observations from a re-analysis of the deposited data

How the results depend on the processing

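edl, pnt and drk were called higher in every fit that tested them, except drk on log2(TPM + 1) (0.16). With library size only, 656 genes were higher and 3823 lower, 6 of the 10 genes were lower (3 higher), and the log2 change was -2.50 for tor, -1.16 for Sos, -0.11 for Ras85D, -0.89 for phl, -1.29 for ksr and -1.60 for rl. The limma fit on log2(TPM + 1) gave 312 genes higher and 4798 lower, 2 and 7 of the 10 genes, and -1.91 for tor, -1.29 for Sos, -0.85 for Ras85D, -1.45 for phl, -1.59 for ksr and -2.48 for rl. By their construction these fits do not re-centre on most genes. DESeq2 called 1300 genes higher and 1124 lower and none of the 10 lower (Dsor1 -1.01, ksr 0.00). Sos was -0.06 with no filter and ksr 0.08 when thinned. Leaving out one library in turn gave 1383 to 1707 genes higher, 1406 to 1724 lower, 1 to 2 of the 10 genes lower, and log2 changes of -2.95 to -0.20 for tor, -0.17 to 0.21 for Sos, -0.65 to 0.46 for ksr, -0.28 to 0.57 for Eph and -0.07 to 0.53 for dnt. List medians under library size only and log2(TPM + 1) were -0.47 and -1.08 for adaptors, -0.60 and -1.52 for Raf regulators, -1.18 and -1.57 for Torso read-outs (-0.13 to 0.24 leaving out one library), -0.80 and -1.38 for Ets factors, and -1.0 and -1.51 for other receptors, and the median of the EGF, FGF and PVR ligand genes, -1.19, was 2.34 with no filter and 1.00 with the stricter one, where other genes were tested. Under the same 2 scalings Eph was -1.0 and -1.61, dnt -1.0 and -1.42, gro -0.77 and -1.44 and wap -0.38 and -1.06, while Src64B was -0.21 and 14-3-3epsilon -0.74 on log2(TPM + 1), and Eph was -0.27 when thinned. tor, Sos and pnt were not tested under the stricter filter, nor tor and pnt when thinned. Where no cause is given, the cause was not tested. The labels do not say that replicate numbers pair libraries, and the deviations of same-numbered libraries had r = -0.118 over 5850 genes. A replicate block gave 1568 genes higher and 1694 lower and changed no call of the 10 genes, and the crossed pairing, chosen after seeing the data, 1834 and 1954. Isoform calls over all genes fell to 0 with the replicate block or no filter and to 0 or 1 leaving out one library, against 108, and drk, Dsor1 and rl were not called in any fit. Depth limits tor, Sos, pnt and ksr most, with 5, 21, 50 and 35 reads at 4–5 h and 26, 41, 8 and 78 at 0–1 h.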
